A study of Mus musculus with 6 samples.

Results

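The voltage-gated ion channel families were read in RNA of mouse embryonic day 11.5 cervical spinal cord. Members were the probe sets annotated to 1 gene symbol that begins with Scn, a digit and a or b (sodium channels), with Cacna, Cacnb or Cacng (calcium channels), with Kcn (potassium channels) or with Hcn (channels opened by hyperpolarisation and cyclic nucleotides). The rule used names and no measured value, but it was chosen with earlier results of these data known. It took 149 of the 28815 probe sets, which stood for 130 of the 19935 genes named by a single symbol. Of these genes 123 had 1 probe set and 7 had several, with 14 for Scn2a alone. By symbol the rule also takes families that are not gated by voltage: 15 probe sets of inward rectifiers (Kcnj) and 14 of tandem-pore leak channels (Kcnk). It takes accessory subunits and a few transcripts from opposite strands as well.

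There were 6 samples with 1 array each. The labels call 3 of them Nkx2.9 knockout and the other 3 wild type, each group lettered A, B and C. All came from the same stage and the same dissection, which left out the dorsal cord and the floor plate. The study looked for genes that act downstream of Nkx2.9, a homeodomain transcription factor, as the motor neurons of the spinal accessory nerve develop. The labels give neither the allele nor the strain, and they do not say whether the 3 samples of a group came from separate embryos or pools. The p-values below therefore measure only the spread between these samples, which may be technical.

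Voltage-gated sodium channels carry the upstroke of the action potential, and their pore is a single large protein (the Scn genes ending in a) held by small beta subunits (those ending in b). Voltage-gated calcium channels turn depolarisation into calcium entry, which drives transmitter release and activity-dependent growth; their pore (Cacna1) works with alpha2delta (Cacna2d) and beta (Cacnb) subunits. Several Cacng proteins serve AMPA-type glutamate receptors more than calcium channels. Potassium channels repolarise the membrane and set how often a neuron can fire. In the embryonic ventral cord these families switch on as progenitors leave the cell cycle, and motor neurons become spontaneously active early in development.

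The deposited values were log2 intensities with each probe set centred on its own median over the 6 arrays. A value of 0 is thus the middle of that probe set's own range, a value says how far an array stood from it, and levels cannot be compared between genes or checked against markers of the tissue. Array medians lay between -0.01 and 0.01. The targeted gene, Nkx2-9, read -0.07, 0.26 and 0.11 on the labelled knockouts A, B and C and -0.21, 0.07 and -0.11 on wild-type A, B and C. It was not lower on the arrays labelled knockout (difference 0.18 on the log2 scale, SE 0.11, limma adjusted p = 0.812). Whether its probes lie in the deleted part is not stated by the labels. Every direction below is therefore between arrays labelled knockout and arrays labelled wild type. Over all 28815 probe sets the smallest adjusted p in limma was 0.812, and 0 were called at the threshold of 0.05.

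No channel gene passed that threshold, so all that follows is a description of differences and of the spread around them. The largest were in genes of the A-type potassium current (Kcnd2 and its partner Kcnip1), in the sodium channel subunit Scn3b, and in Cacng3 and Cacng2, auxiliary subunits of glutamate receptors. Each had a probe set that was lower on average on the arrays labelled knockout by 0.42 to 0.63 on the log2 scale. The sodium channel gene Scn2a had 1 probe set at -0.61, but its 14 probe sets averaged -0.22. Kcnj13, an inward rectifier of transporting epithelia, had the largest difference in the other direction, at 0.45.

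Of the 149 channel probe sets 0 were called at adjusted p under 0.05, where the share over the whole table was 0%, and their adjusted p ran from 0.812 to 0.999. At unadjusted p under 0.05 there were 15 channel probe sets, which is 10.1%, beside 5.57% of all probe sets (1605 of 28815). Of the 15, 9 were lower on the arrays labelled knockout, beside 2.5% of all probe sets, and 6 were higher, beside 3.07%. The count of 15 moved with single arrays: it was 8 without knockout C, 9 without wild-type B and 30 without knockout B. The 9 lower ones became 4 without knockout C, 4 without wild-type B and 26 without knockout B, and the 6 higher ones became 1 without wild-type A. In 20 channel probe sets (13.4%) the 2 groups did not overlap, beside 10.9% of all probe sets measured on every array. The arrays labelled knockout lay below in 11 of them and above in 9, beside 4.25% and 6.68% of the table. In direction alone the families were mixed: 81 of 149 differences (54.4%) were below 0, beside 45% of the table, and the median was -0.0077 beside 0.0087. Counting each gene once, 64 of 130 were lower and the median was 0.0031, beside 44.9% of all genes lower. By gene 14 (10.8%) had an unadjusted p under 0.05, beside 5.9% of all genes.

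The tails are described with a size of 0.25, which was chosen after the values were seen. At least 0.25 lower on the log2 scale were 23 channel probe sets (15.4%), beside 2.69% of the table, and at least 0.25 higher were 2 (Kcnj13 and Kcna5), beside 2.59%. The pore-forming sodium channels accounted for 8 of the 23, all of them Scn2a probe sets except that of Scn3a. With 1 value per gene 14 of 130 genes (10.8%) were that much lower, beside 2.79% of all genes, and the same 2 were that much higher, beside 2.75%. In the 23 probe sets knockout A stood below every wild-type array in 22, and knockout C also in 22, but knockout B in only 7. Wild-type B was the highest array in 20 of the 23. Picking probe sets by a lower difference itself favours low arrays labelled knockout and high wild-type arrays. Over all 149 channel probe sets wild-type B was highest in 47 and knockout B in 33. Without wild-type B 9 probe sets were left at that size, without knockout C 11, and without knockout B there were 33. Channel probe sets also scattered more within groups than the table did: the median SD was 0.104 beside 0.0830.

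By class the counts were as follows. Sodium channels had 20 of 25 probe sets below 0 (median -0.10), and calcium channels had 19 of 26 below 0 (median -0.10). Scn2a alone gave 14 of the 25 sodium probe sets. By gene 7 of 11 sodium channel genes were lower (median -0.03) and 18 of 24 calcium channel genes (median -0.10). Potassium channels had 40 of 95 below 0 (median 0.01), and the 3 HCN probe sets lay close to 0 (median -0.05). The sodium median was -0.29 without knockout B, the calcium median -0.03 without knockout C, and the potassium median -0.01 without wild-type A. The finer classes are taken in turn below, pores before accessory subunits.

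**Figure D1:**
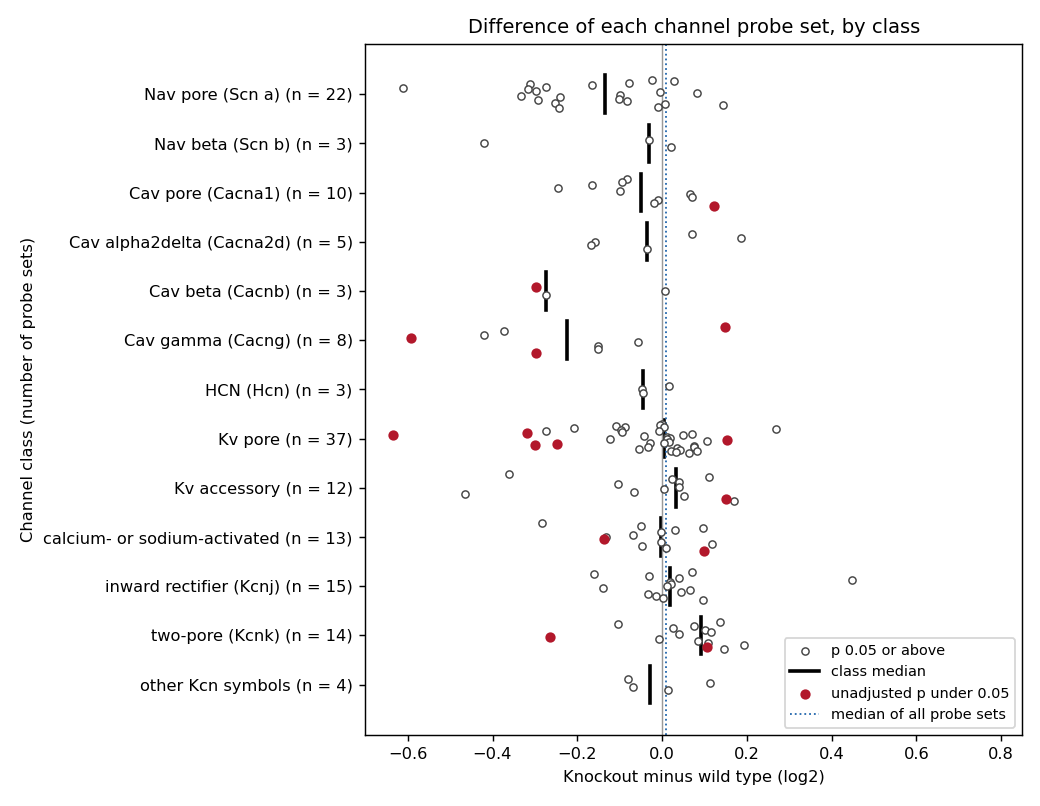
Each point is the difference (knockout minus wild type, log2, x axis) of 1 channel probe set, arranged by class on the y axis with the number of probe sets; bars are class medians, the dotted line is the median of all probe sets, and filled points have an unadjusted limma p under 0.05. Points of the Nav pore, Cav beta and Cav gamma classes lie mostly left of 0, while the Kv pore class centres on 0 with a few points far to the left and the tandem-pore class lies mostly to the right.

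Promoter sequence is shown for Cacng8, the channel gene of lowest unadjusted p. The window is the 250 bases before the transcription start, 5′ to 3′ on the gene's strand, from RefSeq on GRCm38.p6, at chr7:3393792-3394041 (+). None of the motifs searched occurs in it, so it has no capitals.
Cacng8: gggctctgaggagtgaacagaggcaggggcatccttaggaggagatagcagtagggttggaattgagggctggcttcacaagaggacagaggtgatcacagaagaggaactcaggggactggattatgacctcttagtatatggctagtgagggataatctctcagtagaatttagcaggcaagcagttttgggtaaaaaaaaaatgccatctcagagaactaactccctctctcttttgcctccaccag
This window held 0 CG dinucleotides and 48% G and C, below the channel median of 58.2%. Those of Kcnd2 (22 CG, 68.8% G and C) and Kcnh7 (16 CG, 67.6%) lay above it. Whether the annotated start of Cacng8 is the one used in this tissue was not tested.

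RefSeq windows were found for 99 of the 130 channel genes, with 134 starts, and were searched on both strands for short motifs. The hexamer CAGCTG, an E-box of the kind bound by basic helix-loop-helix factors, lay in 24.6% of channel starts, beside 13.0% of the 32851 starts in the table. Counted by gene the shares were 27.3% and 14.7%. The core TNAAGTG, known from NK2-type homeodomain factors such as Nkx2.9, lay in 8.21% of channel starts beside 10.1% of all, and by gene in 11.1% beside 11.4%. The TATA box TATAAA lay in 3.73% of channel starts beside 12.4%, and by gene in 5.05% beside 14.3%. Channel windows were also richer in G and C (median 58.2% beside 52.4%), with a median of 8 CG dinucleotides beside 6. These are matches of letters only.

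Among the pore-forming sodium channels 18 of 22 probe sets were below 0 (median -0.13), but 14 of the 22 belong to Scn2a. By gene 5 of 8 were lower and the median was -0.05. The median over probe sets was -0.066 without knockout C, -0.059 without wild-type B and -0.30 without knockout B. None had an unadjusted p under 0.05, so the share was 0% beside 5.57%. The medians of the 22 probe sets were -0.09, 0.12 and -0.29 on knockout A, B and C and 0.02, 0.27 and -0.02 on wild-type A, B and C. Knockout C was thus the lowest array and wild-type B the highest, with knockout B above 2 of the 3 wild-type arrays. In bulk RNA, fewer cells of a type and less RNA per cell cannot be told apart.

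Scn2a encodes the main sodium channel pore of young axons. Its 14 probe sets, which share 1 gene and are not replicates, had differences between -0.61 and 0.08, and 13 of the 14 were below 0. The groups overlapped in all 14. Averaged over the probe sets the gene read -0.13, 0.24 and -0.45 on knockout A, B and C and 0.06, 0.33 and -0.07 on wild-type A, B and C. Knockout B was higher than 2 wild-type arrays, and only knockout A and C lay below them all. The difference of this average was -0.22 (SE 0.18, limma adjusted p = 0.821). It was -0.051 without knockout C, -0.11 without wild-type B and -0.39 without knockout B.

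The Scn2a probe set with the largest difference, 10472396, read -0.14, 0.02 and -0.89 on knockout A, B and C and 0.16, 0.67 and -0.02 on wild-type A, B and C. Knockout C and wild-type B stood farthest out, and knockout B overlapped the wild type. Its difference of -0.61 (SE 0.28, limma adjusted p = 0.812) was -0.33 without knockout C and -0.79 without knockout B. At the other end, probe set 10472378 read 0.01, 0.84 and -0.58 on knockout A, B and C and 0.16, -0.01 and -0.13 on wild-type A, B and C (difference 0.08, SE 0.33). Here the arrays labelled knockout held both the highest and the lowest value. Knockout B was also high in the next identifiers, at 0.59 in 10472380 and 0.35 in 10472382, so the probe sets of this gene did not give 1 answer for knockout B. Knockout C was below 0 in every one, between -0.89 and -0.12, with a median of -0.47.

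**Figure D2:**
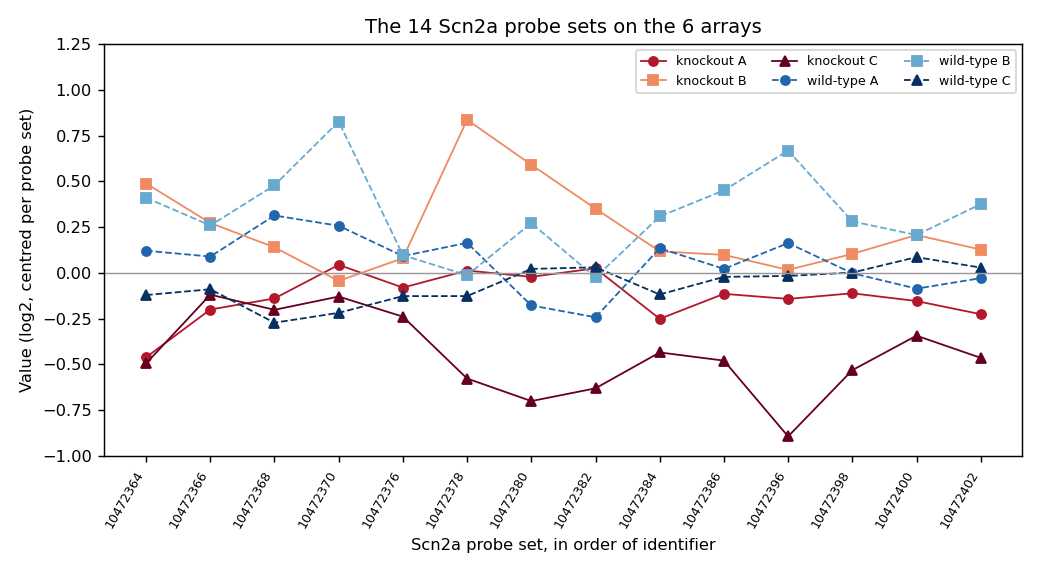
Value of each Scn2a probe set (y axis, log2, centred per probe set) on the 6 arrays, with the 14 probe sets in order of identifier on the x axis and 1 line per array. Knockout C runs lowest across most of the probe sets, wild-type B is highest in many of them, and knockout B peaks at 0.84 in probe set 10472378.

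Scn3a, the sodium channel pore typical of embryonic neurons, read -0.02, 0.02 and -0.36 on knockout A, B and C and 0.16, 0.24 and -0.02 on wild-type A, B and C. Knockout C alone stood clearly low, and the other 2 arrays labelled knockout lay within or at the wild-type range. The difference was -0.25 (SE 0.12, limma adjusted p = 0.812).

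Scn8a, the pore that takes over at mature nodes and initial segments, went the other way, at 0.01, -0.01 and 0.16 on knockout A, B and C and -0.14, 0.05 and -0.19 on wild-type A, B and C. Wild-type B reached above knockout A and B, and the difference was 0.14 (SE 0.08, limma adjusted p = 0.812). Scn9a, Scn1a and the sensory neuron genes Scn10a and Scn11a gave differences between -0.24 and 0.03, and all of these overlapped. Near-identical sequence makes the sodium channel genes of this family hard to separate, and 3 further probe sets carried several of their symbols and were left out.

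Of the 3 beta subunits only Scn3b, a subunit known from embryonic neurons, stood away from 0. It read -0.16, 0.03 and -0.73 on knockout A, B and C and -0.01, 0.40 and 0.01 on wild-type A, B and C. Knockout C and wild-type B were again the extremes, and knockout B overlapped the wild type. The difference of -0.42 (SE 0.21, limma adjusted p = 0.812) was -0.20 without knockout C. Scn2b gave -0.03 (SE 0.07) and Scn4b 0.02 (SE 0.05).

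Calcium channel pores lay close to 0, with 7 of 10 below it and a median of -0.05. Cacna1d, an L-type pore of neurons and pacemaking cells, read -0.25, 0.08 and -0.42 on knockout A, B and C and -0.01, 0.15 and 0.01 on wild-type A, B and C. Knockout A and C lay below the wild type and knockout B inside it, and the difference was -0.25 (SE 0.13, limma adjusted p = 0.812).

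Cacna1s, the L-type pore of skeletal muscle, was the 1 pore with an unadjusted p under 0.05. It read 0.04, 0.06 and 0.12 on knockout A, B and C and -0.05, -0.07 and -0.04 on wild-type A, B and C. The groups did not overlap, but the difference was small, at 0.12 (SE 0.04, limma adjusted p = 0.812). The skeletal muscle markers measured beside it showed no common direction: 4 of 8 probe sets were higher and 4 lower, with a median difference of 0.00. The part of muscle cells in this value was not tested.

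The alpha2delta subunits, which bring the pore to the membrane, had 3 of 5 probe sets below 0 (median -0.03). Cacna2d1 had 2 probe sets, at 0.19 (SE 0.11) and 0.07 (SE 0.09), and Cacna2d3 gave -0.17 (SE 0.13). All 3 overlapped between groups.

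Beta subunits fold and traffic the pore from the cytoplasmic side, and 2 of the 3 measured here were lower, for a median of -0.27 that was -0.097 without knockout C. Cacnb1 read -0.12, -0.02 and -0.43 on knockout A, B and C and 0.02, 0.27 and 0.03 on wild-type A, B and C. All 3 arrays labelled knockout lay below all wild-type arrays, by a margin of only a few hundredths for knockout B. The difference was -0.30 (SE 0.12, limma adjusted p = 0.812), with an unadjusted p under 0.05.

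Cacnb4, the beta subunit of many central neurons, read -0.22, 0.11 and -0.59 on knockout A, B and C and -0.06, 0.12 and 0.06 on wild-type A, B and C. Knockout B sat beside the highest wild-type array. The difference of -0.27 (SE 0.17, limma adjusted p = 0.812) was -0.10 without knockout C and -0.45 without knockout B.

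The gamma class held the calcium channel genes with the largest differences: 7 of 8 probe sets were below 0, with a median of -0.22. In this class 3 of 8 (37.5%) had an unadjusted p under 0.05, beside 5.57% of the table, 2 of them lower and 1 higher. Class medians were -0.17, 0.04 and -0.36 on knockout A, B and C and 0.04, 0.12 and 0.05 on wild-type A, B and C. Knockout A and C lay below the wild type and knockout B level with it. Most of these genes encode TARPs, which are known to carry AMPA receptors to synapses.

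Cacng3, such a TARP, read -0.57, -0.01 and -0.54 on knockout A, B and C and 0.01, 0.36 and 0.29 on wild-type A, B and C. The groups did not overlap, though knockout B and wild-type A were nearly level. The difference was -0.59 (SE 0.17), which is 1.51-fold lower, with a limma adjusted p of 0.812. Leaving out 1 array at a time gave -0.77 to -0.50, so this difference kept most of its size. Its direction could not change, since the groups did not overlap.

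Cacng8, also a TARP, had the lowest unadjusted p of all channel probe sets. It read -0.30, -0.07 and -0.29 on knockout A, B and C and 0.07, 0.07 and 0.10 on wild-type A, B and C. The wild-type arrays lay within a few hundredths of each other, and all arrays labelled knockout lay below them. The difference was -0.30 (SE 0.07, limma adjusted p = 0.812), or 1.23-fold lower.

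Cacng2, whose protein is stargazin, was outside the naming rule and was chosen after its values were seen. Of its 2 probe sets the first read -0.29, 0.31 and -0.58 on knockout A, B and C and 0.14, 0.57 and -0.14 on wild-type A, B and C. The other read -0.34, 0.08 and -0.82 on knockout A, B and C and -0.08, 0.18 and 0.09 on wild-type A, B and C. In both, knockout B lay inside the wild-type range and knockout C lowest, and the differences were -0.37 (SE 0.27) and -0.42 (SE 0.22). Without knockout C they were -0.18 and -0.19, and without wild-type B the first was -0.18. Cacng5 and Cacng7 gave -0.15 each and Cacng4 gave -0.06, all with overlap.

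Cacng1, the gamma subunit of the skeletal muscle channel, was the exception. It read 0.05, 0.00 and 0.11 on knockout A, B and C and -0.15, -0.14 and -0.00 on wild-type A, B and C. The groups touched near 0 without crossing, and the difference was 0.15 (SE 0.06, limma adjusted p = 0.812).

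The voltage-gated potassium channel pores centred on 0: 18 of 37 probe sets were below it and the median was 0.0034. Against that centre, 5 (13.5%) had an unadjusted p under 0.05, beside 5.57% of the table, and 4 of the 5 were lower. Those 4 were Kcnd2, Kcnc2, Kcnh7 and Kcnh5.

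Kcnd2 encodes the pore of the fast A-type current in dendrites and had the largest difference of any channel gene. It read -0.60, 0.01 and -0.54 on knockout A, B and C and 0.20, 0.58 and -0.01 on wild-type A, B and C. Knockout A and C were far below the wild type, while knockout B lay just above wild-type C, so the groups overlapped. The difference was -0.63 (SE 0.21), or 1.55-fold lower, with a limma adjusted p of 0.812. It ran from -0.83 without knockout B to -0.47 without wild-type B.

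Kcnc2, a pore of fast-spiking neurons, read -0.47, -0.01 and -0.39 on knockout A, B and C and 0.05, 0.03 and 0.01 on wild-type A, B and C. Its wild-type arrays were tight, knockout A and C lay low, and knockout B lay just below the wild type. The difference was -0.32 (SE 0.12, limma adjusted p = 0.812).

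Kcnh7 and Kcnh5, of the ether-a-go-go family that shapes resting and repolarising currents, showed another order of arrays. Kcnh7 read -0.03, -0.23 and -0.18 on knockout A, B and C and 0.03, 0.21 and 0.21 on wild-type A, B and C. Knockout B was the lowest array here, and the difference was -0.30 (SE 0.08, limma adjusted p = 0.812). Kcnh5 read -0.28, -0.16 and -0.04 on knockout A, B and C and 0.04, 0.13 and 0.09 on wild-type A, B and C. Neither gene overlapped between groups, and the Kcnh5 difference was -0.25 (SE 0.07, limma adjusted p = 0.812). Knockout B lay below the whole wild-type range in both genes, which it did not for Kcnd2.

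Kcng4, a silent subunit that modifies other pores, was the 1 Kv pore gene higher at an unadjusted p under 0.05. It read 0.01, 0.15 and 0.21 on knockout A, B and C and -0.05, -0.03 and -0.01 on wild-type A, B and C, with no overlap. The difference was 0.15 (SE 0.06, limma adjusted p = 0.812).

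Kcnq3, a subunit of the M-current that brakes repetitive firing, read 0.09, 0.18 and -0.33 on knockout A, B and C and -0.17, -0.02 and 0.02 on wild-type A, B and C. The arrays labelled knockout surrounded the wild type, and the difference was 0.03 (SE 0.14). Kcnh2, the pore of the rapid delayed rectifier of heart and neurons, gave 0.02 (SE 0.08). Outside the naming rule and chosen after their values were seen, Kcnb2, a slow delayed rectifier, gave -0.27 (SE 0.16) and Kcna4, a further A-type pore, -0.21 (SE 0.10), both with overlap. Kcna5 gave 0.27 (SE 0.16), with knockout A at 0.55, and 0.098 without it.

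The 12 genes of Kv accessory subunits had 4 below 0 and a median of 0.03. The KChIP proteins (Kcnip), calcium sensors that bind Kcnd pores, did not share a direction. Kcnip1 read -0.57, 0.16 and -0.58 on knockout A, B and C and 0.05, 0.40 and -0.05 on wild-type A, B and C. Knockout A and C were low together, as for Kcnd2, and knockout B lay among the wild-type arrays. The difference was -0.46 (SE 0.23, limma adjusted p = 0.812).

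Kcnip3, which is also known as a calcium-dependent transcriptional repressor, read 0.07, 0.05 and 0.09 on knockout A, B and C and -0.05, -0.14 and -0.05 on wild-type A, B and C. The groups did not overlap, and the difference was 0.15 (SE 0.04, limma adjusted p = 0.812). Kcnip4 gave 0.17 (SE 0.21), with the 3 arrays labelled knockout spread from -0.38 to 0.34. Kcnab1, a cytoplasmic beta subunit named here after its values were seen, gave -0.36 (SE 0.18), with wild-type B at 0.67, and -0.15 without that array.

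Dpp6 and Dpp10, peptidase-like proteins that complete the Kcnd complex, come from the list of excitability partners. Dpp6 had 2 probe sets, at -0.23 (SE 0.10) and 0.09 (SE 0.07). Dpp10 gave -0.25 (SE 0.19), and -0.070 without knockout C.

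The class of channels opened by calcium or sodium had 8 of 13 probe sets below 0 and a median of -0.0025. By symbol this class also takes the accessory Kcnmb genes and Kcnu1. Kcnn2, a small-conductance channel that makes the afterhyperpolarisation, read -0.06, -0.03 and -0.11 on knockout A, B and C and 0.03, 0.06 and 0.12 on wild-type A, B and C. No array crossed into the other group, and the difference was small at -0.14 (SE 0.05, limma adjusted p = 0.812). Kcnu1, a channel known from sperm, read 0.04, 0.04 and 0.05 on knockout A, B and C and -0.05, -0.09 and -0.04 on wild-type A, B and C (difference 0.10, SE 0.04). Kcnma1, the large-conductance channel, had 2 probe sets that differed in size, at -0.28 (SE 0.13) and -0.05 (SE 0.07).

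Inward rectifiers, which hold the resting potential, had 5 of 15 below 0 and a median of 0.02. None had an unadjusted p under 0.05. Kcnj13 read 0.29, -0.01 and 0.76 on knockout A, B and C and -0.06, -0.26 and 0.01 on wild-type A, B and C. Knockout C was far the highest array and knockout B overlapped the wild type. The difference of 0.45 (SE 0.19, 1.36-fold, limma adjusted p = 0.812) was 0.24 without knockout C and 0.63 without knockout B. Kcnj10, the main potassium channel of glia, gave -0.16 (SE 0.09), with knockout C lowest at -0.32.

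Tandem-pore channels, which carry background leak, leaned the other way from the sodium and calcium channels, with 3 of 14 below 0 and a median of 0.09 that was 0.020 without wild-type A. Kcnk2, a leak channel opened by stretch and lipids, was the exception. It read -0.23, -0.01 and -0.22 on knockout A, B and C and 0.01, 0.31 and 0.02 on wild-type A, B and C, without overlap. The difference was -0.27 (SE 0.10, limma adjusted p = 0.812). Kcnk7 read 0.09, 0.03 and 0.04 on knockout A, B and C and -0.05, -0.08 and -0.03 on wild-type A, B and C (difference 0.11, SE 0.04).

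The HCN channels, pacemakers of rhythmic neurons and heart, had differences smaller than their errors: Hcn3 and Hcn4 gave -0.05 each (SE 0.07 for both) and Hcn2 gave 0.02 (SE 0.07). In all 3 the groups overlapped.

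Set side by side, the lower and the higher channel genes differed in size and in spread. The 9 lower genes at an unadjusted p under 0.05 had differences from -0.63 to -0.14, and the 6 higher ones from 0.10 to 0.15. In all 6 higher genes the groups did not overlap, but the arrays of each group also lay close together. Nor did the groups overlap in the 9 lower genes, except in Kcnd2. Over the table the arrays labelled knockout lay wholly above in 6.68% of probe sets and wholly below in 4.25%. These genes were picked by a low p, which favours groups that do not overlap.

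**Figure D3:**
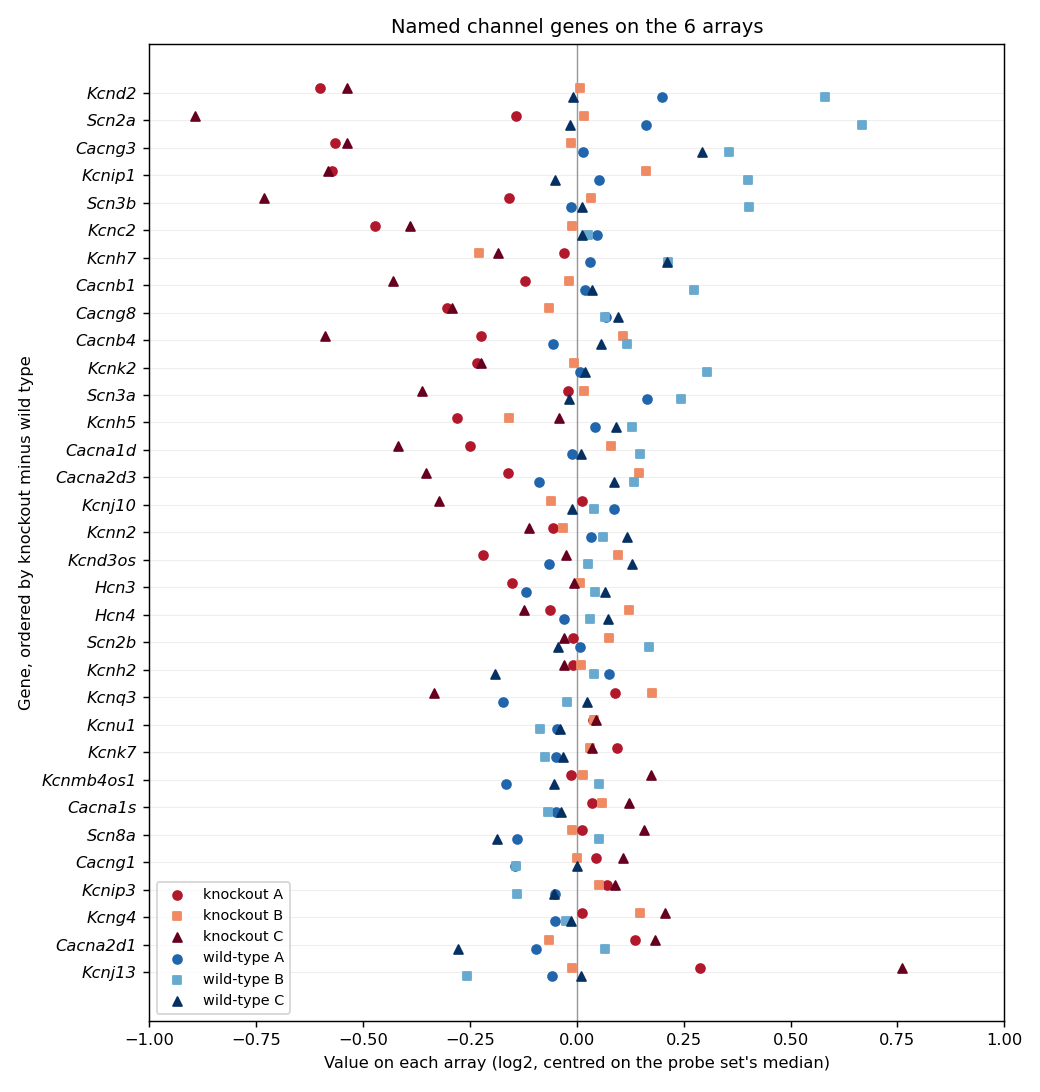
Value of each named channel gene on the 6 arrays (x axis, log2, centred on the probe set's median), with genes on the y axis ordered by knockout minus wild type. At the top, knockout A and C lie left of the wild type while knockout B stays near 0 (Kcnd2 at -0.60, 0.01 and -0.54 on A, B and C). Towards the bottom, the higher genes at an unadjusted limma p under 0.05 form narrower clusters. Other higher genes spread wider, such as Kcnj13 with knockout C at 0.76 and Cacna2d1 from -0.28 to 0.18.

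Other genes of membrane excitability were read from a list of 30 gene symbols, for genes that act beside the channels. Of these symbols 25 were measured, with 29 probe sets. Of the 29, 24 were below 0, with a median of -0.11, beside the table's 45% below 0 and median of 0.0087. Unadjusted p was under 0.05 for 3, 2 lower (Fgf11 and Fgf12) and 1 higher (Rrad), beside 5.57% of all probe sets. That count of 3 was 0 without knockout C, 1 without knockout A, wild-type A or wild-type B, and 9 without knockout B.

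The intracellular FGF homologous factors, which bind the tail of sodium channel pores and tune their inactivation, all had differences below 0. Fgf12 read -0.21, 0.02 and -0.59 on knockout A, B and C and 0.17, 0.55 and -0.02 on wild-type A, B and C. Its array order was close to that of Scn2a, with knockout C lowest and wild-type B highest, and the difference of -0.50 (SE 0.20, limma adjusted p = 0.812) was -0.33 without knockout C and -0.34 without wild-type B. Fgf14 read -0.54, 0.07 and -0.99 on knockout A, B and C and 0.06, 0.21 and -0.06 on wild-type A, B and C. Knockout B lay inside the wild-type range, and the difference was -0.56 (SE 0.25, limma adjusted p = 0.812). It was -0.31 without knockout C and -0.83 without knockout B. Fgf13 gave -0.33 (SE 0.15) and Fgf11 -0.23 (SE 0.08).

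Rrad, a small GTPase that restrains calcium channels, read 0.03, 0.07 and 0.06 on knockout A, B and C and -0.14, -0.03 and -0.24 on wild-type A, B and C. The groups did not overlap, and the difference was 0.18 (SE 0.06, limma adjusted p = 0.812). Ank3, the anchor of sodium channels at the axon initial segment, gave -0.16 (SE 0.11).

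Some marker lists of other cell types and states also had knockout C or wild-type B at an extreme, and others did not. Of 16 probe sets of differentiated neuron markers 15 were lower on the arrays labelled knockout (median -0.14), and 3, all lower, had an unadjusted p under 0.05, beside 2.5% of all probe sets. Their medians were -0.05, 0.01 and -0.20 on knockout A, B and C and 0.03, 0.16 and -0.02 on wild-type A, B and C. As for the sodium channel pores, knockout C was lowest and wild-type B highest. Cell cycle genes were higher in 13 of 13 probe sets (median 0.30), at 0.18, -0.09 and 0.22 on knockout A, B and C and -0.03, -0.54 and 0.03 on wild-type A, B and C. Here wild-type B stood lowest, and knockout A and C were highest.

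Mesenchyme markers were higher in 8 of 8 probe sets (median 0.51), with knockout C at 1.06 and the other arrays between -0.07 and 0.16. Endothelial markers were likewise at 0.76 on knockout C and between -0.11 and 0.11 elsewhere. Erythroid markers were higher in 5 of 5 (median 0.31), with wild-type A and B low at -0.41 and -0.46 and wild-type C at 0.17. Motor neuron markers (6 of 9 lower, median -0.04, lowest on wild-type C at -0.17), neural progenitor markers (5 of 11 lower, median 0.04) and dorsal root ganglion markers (3 of 7 lower, median 0.03, with 2 channel genes among them) had medians near 0. Neural crest markers were higher in 4 of 4 (median 0.08) and macrophage markers lower in 5 of 6 (median -0.04). The part of these markers, and of knockout C and wild-type B, in the channel differences was not tested beyond leaving out each array.

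**Figure D4:**
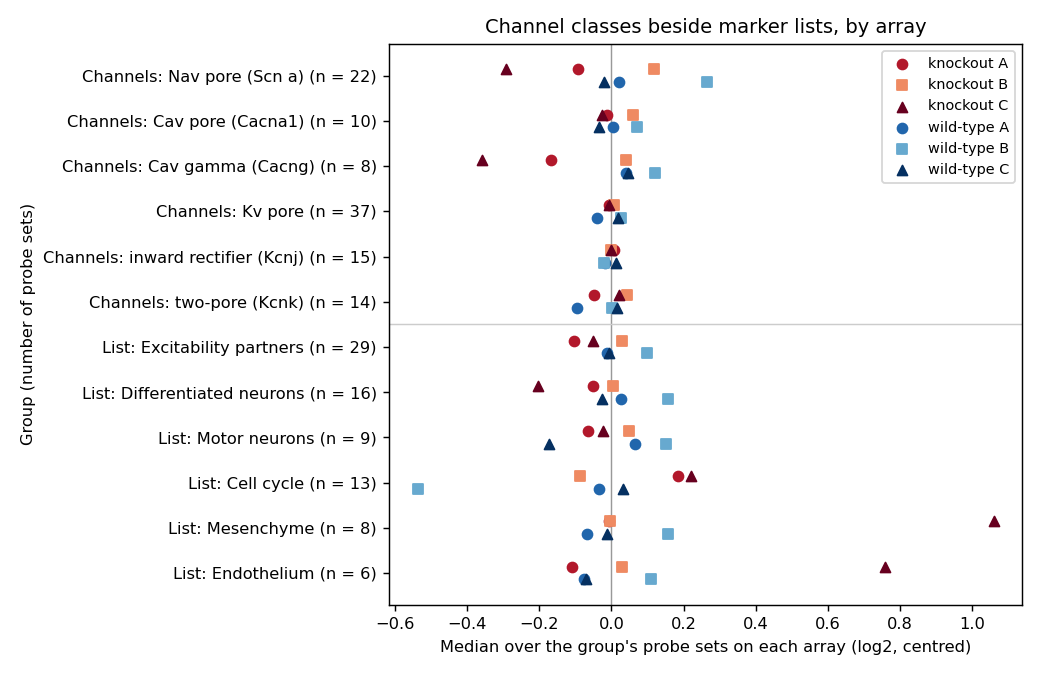
Median on each array (x axis, log2, centred values) over the probe sets of 6 channel classes and 6 lists of other genes (y axis, with the number of probe sets). The Nav pore and Cav gamma classes share with the differentiated neuron list a low knockout C (-0.29, -0.36 and -0.20), and the mesenchyme and endothelium lists are high on knockout C (1.06 and 0.76).

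With each array left out in turn, the differences of Kcnd2, Cacng3, Cacng8, Kcnh7, Kcnh5, Kcnc2 and Kcnk2 kept their direction. Only for Kcnd2 could the direction have changed, since the groups of the others did not overlap. Of these genes, Kcnk2 changed most in proportion, to -0.17 without wild-type B. The differences of Scn2a, Scn3a, Scn3b, Scn8a, Cacna1d, Cacna2d3, Cacnb1, Cacnb4, Kcnj10 and Kcnj13 also kept their direction but shrank by more than 1.5 times without knockout C. Among them Cacnb1, whose groups did not overlap and whose direction could thus not change, had an unadjusted p under 0.05. It moved to -0.18, Scn3a and Cacna1d to -0.13 each, and Cacna2d3 to -0.05.

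**Figure D5:**
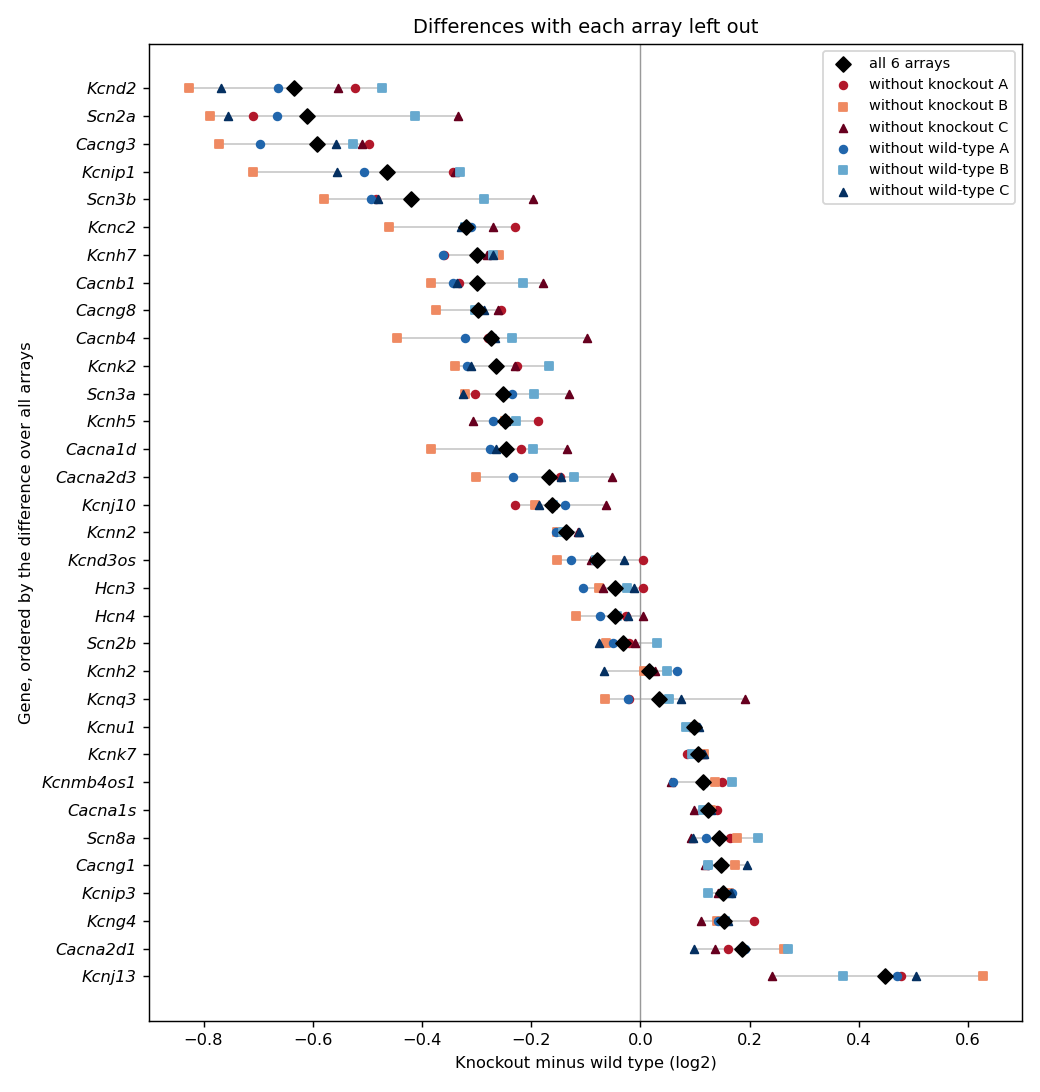
Difference of each named gene (knockout minus wild type, log2, x axis) over all 6 arrays (diamond) and with each array left out (other symbols), genes on the y axis in order of the difference. Without knockout C, Scn2a moves from -0.61 to -0.33 and Scn3b from -0.42 to -0.20, while Kcnh7 and Cacng8 move little.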

How the data were processed

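Per the labels' protocols, RNA of the 6 samples was amplified into sense-strand cDNA and given a biotin label. The authors deposited log2 intensities made with RMA, per the submitters' processing notes; the table shows every complete probe set with a median of 0 over the arrays, and the log base was taken as 2. Signal over background cannot be seen in such values, and precision is limited by 3 arrays a group.

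Genotype was fitted with limma 3.58.1 (lmFit and eBayes, R 4.3.3) on all 28815 probe sets, with Benjamini-Hochberg adjustment over all of them and a threshold of 0.05; 24 probe sets, no channel among them, lacked a value on wild-type C. SEs are limma's. The script was tested on simulated data. Platform annotation gave 1 symbol to 21780 probe sets, several to 1605 and none to 5430. All 130 channel genes were found in RefSeq by Entrez identifier.

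Channel members and gene lists were chosen with earlier results of these data known. Named genes were the 2 of lowest p in each class, all at unadjusted p under 0.05, the 4 largest differences, and Scn2a, Scn3a, Scn8a, Kcnq3 and Kcnh2; 1 further item of this rule is not reported here. Scn2a stands for its probe set of largest difference unless an average is given. Alternatives were a replicate block, other normalizations, array weights, a robust prior, 1 value per gene and each array left out. Other channel genes named were chosen after their values were seen. Python 3.11.15 with matplotlib 3.10.9 made the figures.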

Additional observations from a re-analysis of the deposited data

How the results depend on the processing

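No channel probe set reached an adjusted p under 0.05 in limma under any of the alternatives run, and the lowest adjusted p of a named gene was 0.339. For the 33 named genes 388 values under alternatives kept their sign and their side of the threshold and 8 changed sign, in 6 genes. Leaving out 1 array at a time, those 6 ranged as follows: Hcn3 from -0.10 to 0.0041, Hcn4 from -0.12 to 0.0051, Kcnd3os from -0.15 to 0.0050, Kcnh2 from -0.067 to 0.067, Kcnq3 from -0.065 to 0.19 and Scn2b from -0.076 to 0.031. With 1 array left out, the count of 15 channel probe sets at unadjusted p under 0.05 ranged from 8 to 30. The 9 lower ones then ranged from 4 to 26 and the 6 higher ones from 1 to 6. With a replicate block, and also with array weights, the 6 higher ones became 7. The shares beside the whole table were 5.37% and 4.10% without knockout C, and 20.1% and 9.96% without knockout B. The count of 23 at least 0.25 lower, added after seeing the data, ranged from 9 to 33, and was 13 with quantile normalization and 14 with 1 value per gene. Class medians ranged from -0.290 to -0.050 for sodium, -0.147 to -0.0318 for calcium and -0.00999 to 0.0233 for potassium. With 1 array left out, the 3 excitability partners ranged from 0 to 9. With a replicate block on the letters A to C the 15 became 28 (18.8% of channels beside 8.86% of the table), the 9 lower ones 21 and the 3 partners 10. Deviations of same-lettered arrays correlated at 0.165 (A), 0.217 (B) and 0.0159 (C), and those of other letters between -0.187 and 0.0436. The labels do not say what the letters mark, so they were not taken as pairs in the main fit. Whether they mark pairs was not tested. The causes were not tested.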

Other observations

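Some transcripts beside the channel genes, and probe sets shared by several of them, are given here as values. Kcnd3os, which lies opposite a potassium channel gene, gave -0.08 (SE 0.09), Kcnmb4os1 gave 0.11 (SE 0.08), Kcnmb4os2 gave -0.07 (SE 0.10), and Kcnrg, whose protein binds Kv pores, gave 0.01 (SE 0.14); all 4 overlapped between groups.

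Of the 3 probe sets that carried several sodium channel symbols, the one for Scn9a and Scn3a read -0.24, -0.25 and -0.04 on knockout A, B and C and 0.62, 0.26 and 0.04 on wild-type A, B and C. The groups did not overlap, knockout B was among the low arrays, and the difference was -0.48 (SE 0.15, limma adjusted p = 0.812). The one for Scn3a and Scn1a gave -0.28 (SE 0.15), and the one for Scn2a, Scn9a and Scn3a gave -0.13 (SE 0.22), both with overlap. Which of the named genes these values come from was not tested.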
